A study of Mus musculus with 6 samples.

Results

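The creatine kinases, adenylate kinase 1 and the AMP deaminases were examined on a muscle microarray that compared MyoD-silenced cells with control cells during differentiation. Members were the spots whose platform gene symbol was CKMT2, AK1, CKM, CKB, AMPD1 or AMPD3. Of these 6 symbols, 5 were on the array, with 15 probes in 30 spots, out of 1521 named genes and 2466 features in all (a feature is a gene or a probe without a gene name). CKM had 11 probes, the other 4 genes had 1 probe each, and no spot carried the symbol AMPD3. The silenced cells were 1 clone of the mouse myoblast line C2C12, MyoD(-)cl.A8, which carried MyoD cloned in antisense in pcDNA 3.0 and was selected with G-418. The reference RNA came from C2C12 control cells. Both were compared at days 1, 3 and 6 of differentiation, and the labels give 2% horse serum for the differentiating medium. On each day a dye swap gave 2 arrays, named replicate A (clone in Cy5) and replicate B (clone in Cy3), so 6 arrays were compared and n = 3 days. The labels do not name separate cultures for the arrays of a day, so the p-values measure the spread between these arrays and days only, which may be technical.

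Creatine kinases move a phosphate group between ATP and creatine, and so hold a reserve of high-energy phosphate in cells whose ATP use changes quickly. CKM is the cytosolic isoform of mature muscle, CKB the cytosolic isoform of brain and of undifferentiated myoblasts, and CKMT2 the sarcomeric isoform of the mitochondrial intermembrane space, where it works beside the adenine nucleotide translocases. AK1, the main cytosolic adenylate kinase of muscle, makes ATP and AMP from ADP, and AMPD1, the AMP deaminase of skeletal muscle, removes AMP by turning it into IMP. MyoD is a transcription factor of the muscle lineage that binds DNA at E-boxes, short motifs of the form CANNTG, and an enhancer of the mouse Ckm gene with such motifs lies further upstream than the windows shown here.

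Because the silenced factor binds E-boxes, the 250 bases before the gene start are shown for mouse Ckmt2, Ak1, Ckb and Ckm, 5′ to 3′ on the gene's strand, from RefSeq (GRCm38.p6), with each CANNTG in capitals. The windows are chr13:91876886-91877135 on the minus strand for Ckmt2, chr2:32621508-32621757 on the plus strand for Ak1, chr12:111672339-111672588 on the minus strand for Ckb and chr7:19410844-19411093 on the plus strand for Ckm. Ak1 had 4 annotated starts, and the window with the most E-boxes is the one printed.
Ckmt2: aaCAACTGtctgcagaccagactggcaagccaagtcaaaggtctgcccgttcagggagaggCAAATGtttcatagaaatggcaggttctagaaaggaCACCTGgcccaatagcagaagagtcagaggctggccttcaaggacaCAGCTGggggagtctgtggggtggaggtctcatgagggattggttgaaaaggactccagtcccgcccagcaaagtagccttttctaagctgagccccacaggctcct
Ak1: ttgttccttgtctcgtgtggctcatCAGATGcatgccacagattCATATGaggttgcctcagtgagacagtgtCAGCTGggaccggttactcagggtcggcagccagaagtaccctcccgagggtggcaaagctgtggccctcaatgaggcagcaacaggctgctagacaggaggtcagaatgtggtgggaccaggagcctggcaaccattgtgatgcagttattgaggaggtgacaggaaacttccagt
Ckb: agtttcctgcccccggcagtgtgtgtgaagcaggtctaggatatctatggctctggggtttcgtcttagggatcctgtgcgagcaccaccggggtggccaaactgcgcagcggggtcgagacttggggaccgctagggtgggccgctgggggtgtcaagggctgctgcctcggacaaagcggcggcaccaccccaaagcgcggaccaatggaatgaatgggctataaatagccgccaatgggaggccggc
Ckm: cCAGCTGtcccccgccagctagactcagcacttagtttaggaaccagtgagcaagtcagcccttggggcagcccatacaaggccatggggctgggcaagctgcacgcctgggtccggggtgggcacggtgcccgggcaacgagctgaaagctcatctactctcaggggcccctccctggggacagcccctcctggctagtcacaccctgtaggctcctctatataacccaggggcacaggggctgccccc

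The Ckmt2 window held 4 E-boxes, which began 248, 189, 153 and 107 bases before the start and the one nearest the start read CAGCTG. The printed Ak1 window held 3, and the other Ak1 windows held 1, 2 and 1. The Ckb window held 0 and the Ckm window held 1, a CAGCTG that began 249 bases before the start. CANNTG reads as CANNTG on either strand, and it was present in 66.2% of all 32851 mouse windows of this length, with a median of 1 per window. Within it, CAGCTG was present in 13.0% of windows and CACCTG, on either strand, in 17.2%. These matches describe the letters of mouse windows only. The array carried probes for human genes, and it was not tested whether each probe bound the mouse transcript of its own gene.

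The values below are the authors' deposited scores, 1 per spot, with a scale and normalization that the sources used here do not state. Each array was centred on its median, and no fold changes are given because the scores cannot be read as log ratios. A score above 0 is likely higher in the clone, because GEO's labels mark the clone's RNA as Test and the control RNA as Reference, a direction that no value here checks. Dye-swapped arrays of one day correlated across features at 0.16 to 0.21, and arrays of different days at -0.08 to 0.12. The arrays of a day were averaged as sharing 1 orientation, which these weak correlations cannot settle and which was not tested otherwise. The SD over the spots of an array was 1.41 to 1.62 units. No scanner intensities were analysed here, so how far a spot stood above background is unknown, and 6 arrays set the limit of precision. MYOD1 itself scored 0.15 ± 0.20 (SD, n = 3 days), but this is no check of the silencing, because the construct carries MyoD sequence and no source used here gives the strand that the probe binds. The scores are differences between clone and control, so whether muscle genes were present at all cannot be read from them. Of 26 skeletal muscle markers 16 were measured, 9 with means above 0 and 7 below, with medians of -0.01, 0.03 and 0.42 on days 1, 3 and 6, and 0 passed limma's test of the mean over the days (0 at an unadjusted p under 0.05). On day 3 alone 1 of the 16 passed against array spread, MYH7, the slow myosin heavy chain, at -4.24 and -3.08 on the arrays of that day (mean -3.66, adjusted p = 0.0145 in limma). At an unadjusted p under 0.05, TNNI2 was counted on day 1 (-1.80), MYH7 and MYH1 on day 3 (-3.66 and -2.70), and MB and TNNI2 on day 6 (-2.61 and 1.57). That is 1, 2 and 2 of the 16 markers, against 152, 236 and 273 of all 2466 features on these days. These markers are named after their values were seen. Of 11 markers of other lineages 4 were measured, TAGLN, FABP4, SCD and CNN1, 2 above 0 and 2 below by mean over the days, and 0 passed over the days or on any day. At an unadjusted p under 0.05, 0 were counted over the days and SCD alone by day, on day 3 (-1.56).

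CKMT2 and CKB scored below 0 on 6 of 6 arrays and AK1 on 5 of 6, and these genes are grouped here after their values were seen. CKM and AMPD1 had means closer to 0. None of the 5 genes passed the test over all features. The 3 low genes had means over the days of -1.64 for CKMT2, -1.48 for AK1 and -1.27 for CKB, and stood 16th, 28th and 42nd from the lowest of the 2466 features. In limma's test of the 3 day means against 0 with Benjamini-Hochberg adjustment, 0 of 5 members passed, and 9 features passed, 0.365% of all (5 features with the dye orientation as a replicate block, 0 of them members). At an unadjusted p under 0.05, 3 of 5 members were counted, all below 0 (likely lower in the clone), against 3.24% of all features on that side. The days order these genes differently, as the plot of all members by array shows.

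**Figure D1:**
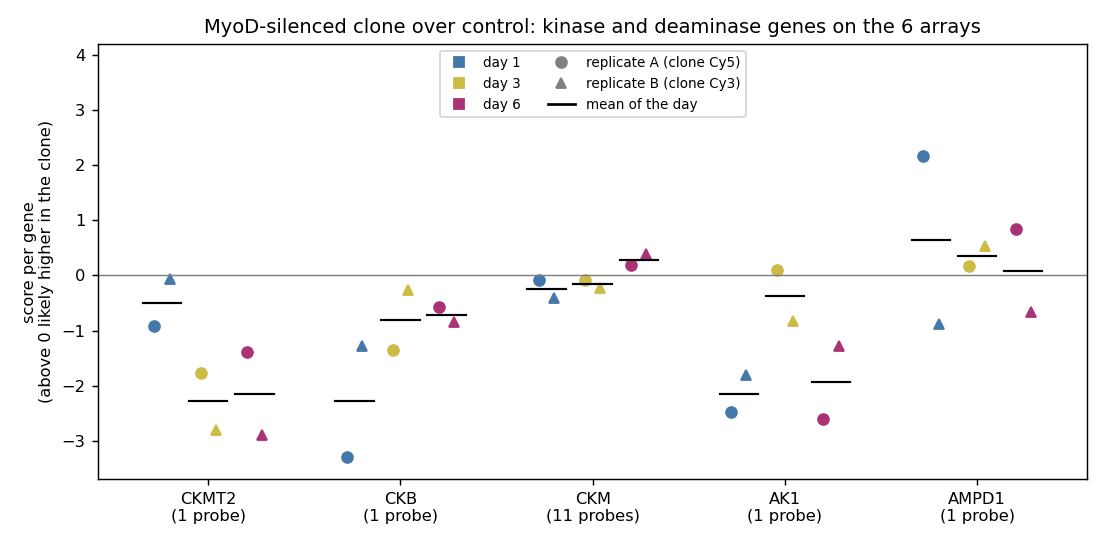
Score per gene (vertical axis, score units, above 0 likely higher in the clone) for the 5 measured genes on each of the 6 arrays. Colours mark the day, circles replicate A, triangles replicate B, and bars the mean of a day. All 6 points of CKMT2 and of CKB and 5 of 6 points of AK1 lie below 0. The points of CKM lie between -0.40 and 0.38, but each is a mean of 11 probes, where the other genes have 1 probe each.

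CKMT2 (Entrez Gene 1160), the mitochondrial creatine kinase of muscle, scored -0.92 and -0.07 on the day 1 arrays, -1.76 and -2.80 on the day 3 arrays, and -1.39 and -2.90 on the day 6 arrays (replicate A first). All 6 arrays lay below 0, a pattern found in 2.88% of features, and both arrays of days 3 and 6 lay below both arrays of day 1. The mean over the days was -1.64 ± 0.99 (SD, n = 3 days; 95% interval -2.64 to -0.65), with limma's adjusted p = 0.181. Without day 1 the mean of the other days was -2.21 and passed with an adjusted p of 0.0296 in limma, where 29 of all features passed. Without day 3 or without day 6 the mean was -1.32 or -1.39, with adjusted p of 0.979 and 0.870 in limma.

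By day, CKMT2 stood 600th from the lowest feature on day 1, 35th on day 3 and 41st on day 6. Against the spread of the dye-swapped arrays, which is no biological replicate, limma's adjusted p was 0.958 on day 1, 0.203 on day 3 and 0.237 on day 6. With the median of 10 neighbouring probes subtracted, taken in steps of 2 places and so without the adjacent ones, the day 3 score was -3.10. It passed (adjusted p = 0.0160 in limma), in a setting where 19 of all features passed on day 3, against 8 without the subtraction. The difference between days 3 and 1 was -1.79 units (95% interval -3.79 to 0.22), and the difference between days 6 and 1 was -1.65 (-3.65 to 0.36). Neither difference passed in limma, with adjusted p of 0.694 and 0.685. Days 6 and 3 differed by 0.14 (-1.87 to 2.14).

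The 2 spots of the CKMT2 probe were low alike. With odd-numbered and even-numbered spots each centred on their own median, 11 of 12 spot values lay below 0, which held for 2.31% of all probes. The spots differed by 1.21 units on average over the arrays, against a median of 1.11 units over all probes. The mean from the odd-numbered spot alone was -1.79, and from the even-numbered spot alone -1.51. The neighbouring probe at spots 1877 and 1878, which has no gene name, averaged -1.62 and lay below 0 on the same 6 arrays, between -2.11 and -0.26. The next probe on the other side, at spots 1881 and 1882 and also unnamed, averaged -0.73. Whether position on the slide had a part in the CKMT2 scores was not tested beyond the subtraction of neighbours, under which the mean was -1.77. That subtraction took probes in steps of 2 places, so these adjacent unnamed probes did not enter it.

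CKB (Entrez Gene 1152), the cytosolic isoform of myoblasts, scored -3.28 and -1.29 on day 1, -1.35 and -0.27 on day 3, and -0.58 and -0.85 on day 6. All 6 arrays lay below 0, with the lowest on day 1, the day on which CKMT2 was closest to 0. Replicate B of day 1 was above replicate A of day 3, so the days overlap. The mean was -1.27 ± 0.88 (SD, n = 3 days; 95% interval -2.24 to -0.29), with limma's adjusted p = 0.485. CKB stood 9th from the lowest feature on day 1, 395th on day 3 and 496th on day 6.

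The day 1 score of CKB had an adjusted p of 0.458 against array spread in limma, and without day 1 its mean was -0.76. The score was higher on day 6 than on day 1 by 1.57 (95% interval -0.47 to 3.62) and on day 3 than on day 1 by 1.48 (-0.57 to 3.52), and neither difference passed. Without replicate A of day 1 these differences were 0.57 and 0.48. The spots of the probe gave 10 of 12 values below 0 with the same centring of odd-numbered and even-numbered spots, and 9 of 12 against the median of all spots. The share of all probes with 10 of 12 or more was not counted. On replicate B of day 1 the spots of the CKB probe stood at 0.57 and -3.16, a difference of 3.73 units. The mean over days was -0.93 from the odd-numbered spot alone and -1.63 from the even-numbered one.

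CKM (Entrez Gene 1158), the muscle isoform, averaged -0.08 and -0.40 on day 1, -0.08 and -0.23 on day 3, and 0.18 and 0.38 on day 6 over its 11 probes. Both arrays of day 6 lay above 0 and the arrays of the other days below. The mean was -0.04 ± 0.28 (SD, n = 3 days; 95% interval -0.95 to 0.88), with limma's adjusted p = 0.995. Its sign turned under several alternatives (0.064 without day 1, 0.020 without day 3, 0.097 with even-numbered spots only), so no direction is given. Day 6 was higher than day 1 by 0.52 (95% interval -1.33 to 2.37) and did not pass (adjusted p = 0.898 in limma).

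The 11 CKM probes differed from one another on every array. Their means over the days ran from -0.56 to 0.41, with 6 below 0 and 5 above, none had the same sign on all 6 arrays, and limma's adjusted p was 0.958 to 0.995. The probe at spots 3 and 4 scored -3.18 on replicate B of day 1 and 6.03 on replicate B of day 6, against 0.36 for the mean of the 11 probes on that day 6 array. The probe at spots 1871 and 1872, a few places from the CKMT2 probe, scored -1.23 and -2.67 on day 6, while the probe at spots 4111 and 4112 scored 2.37 and 0.97 there. Of the 11 probes, 6 were higher on day 6 than on day 1, and the lowest adjusted p among these differences was 0.274 in limma.

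On each array the SD between the CKM probes was 73.6% to 162% of the SD between all probes of the array, 107% on average. Of the 15 genes with at least 4 probes, CKM had the highest such ratio, close to TPT1 and MYBPC1, with 4 probes each, at 104%. The CKM average includes the 162% of replicate B of day 6, where the probe at spots 3 and 4 scored 6.03. On the other arrays the CKM ratio was 73.6% to 132%, and an average without that probe was not taken. The ratio was 98.7% for MYH7 with 5 probes, 69.0% for TNNT3 and 81.6% for TNNI2, fast-fibre troponins with 7 and 6 probes, and lowest at 66.3% for PTPA. The array mean of the CKM probes ranged from -0.40 to 0.36, with an SD of 0.28 over the 6 arrays. That SD was 0.83 for TPM2, a tropomyosin with 10 probes, 0.95 for TNNT1, the slow troponin T with 9, and 1.57 for TNNI2. Whether the CKM probes bind the mouse transcript was not tested.

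**Figure D2:**
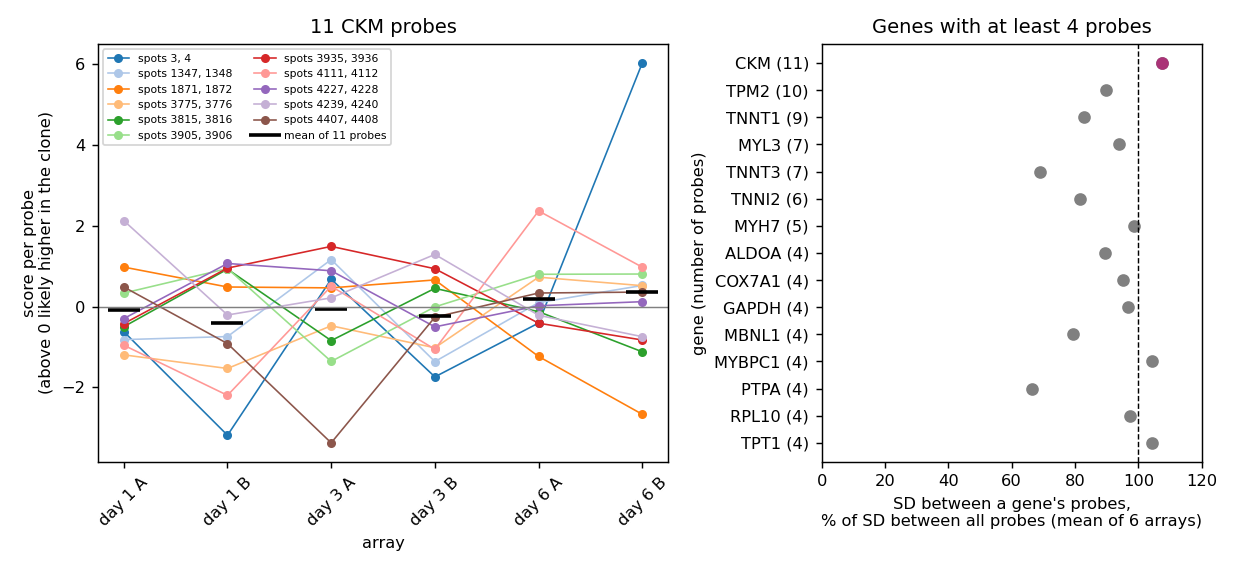
Left: score per probe (score units) of the 11 CKM probes on the 6 arrays, with a line for each probe and black bars for their mean. Right: SD between the probes of a gene as a percentage of the SD between all probes, averaged over the 6 arrays, for the 15 genes with at least 4 probes. The CKM lines cross 0 throughout and spread from -3.37 to 6.03, and CKM has the highest ratio, 107%.

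AK1 (Entrez Gene 203), the cytosolic adenylate kinase, scored -2.48 and -1.81 on day 1, 0.10 and -0.83 on day 3, and -2.60 and -1.27 on day 6. Of the 6 arrays 5 lay below 0, a pattern (at most 1 array above 0) found in 12.6% of features. Both arrays of day 3 lay above all 4 arrays of days 1 and 6, and days 1 and 6 overlapped. The mean was -1.48 ± 0.97 (SD, n = 3 days; 95% interval -2.47 to -0.49), with limma's adjusted p = 0.278. AK1 stood 12th from the lowest feature on day 1, 787th on day 3 and 60th on day 6, with adjusted p of 0.458, 0.935 and 0.246 against array spread in limma.

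The AK1 score was higher on day 3 than on day 1 by 1.78 (95% interval -0.19 to 3.74), and the difference between days 6 and 3 was -1.57 (-3.54 to 0.40). Neither passed, with adjusted p of 0.692 and 0.704 in limma. The spots of the AK1 probe gave 10 of 12 values below 0 but differed more than those of most probes, by 1.57 units on average, a difference larger than that of 84.2% of probes. On replicate A of day 6 they stood at 0.11 and -5.35. The mean over days was -0.90 from the odd-numbered spot alone and -2.08 from the even-numbered one, with adjusted p of 0.867 and 0.555 in limma. Odd-numbered spots had higher medians than even-numbered ones on every array, by 0.39 to 0.86 units, and each set was centred on its own median for these values.

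**Figure D3:**
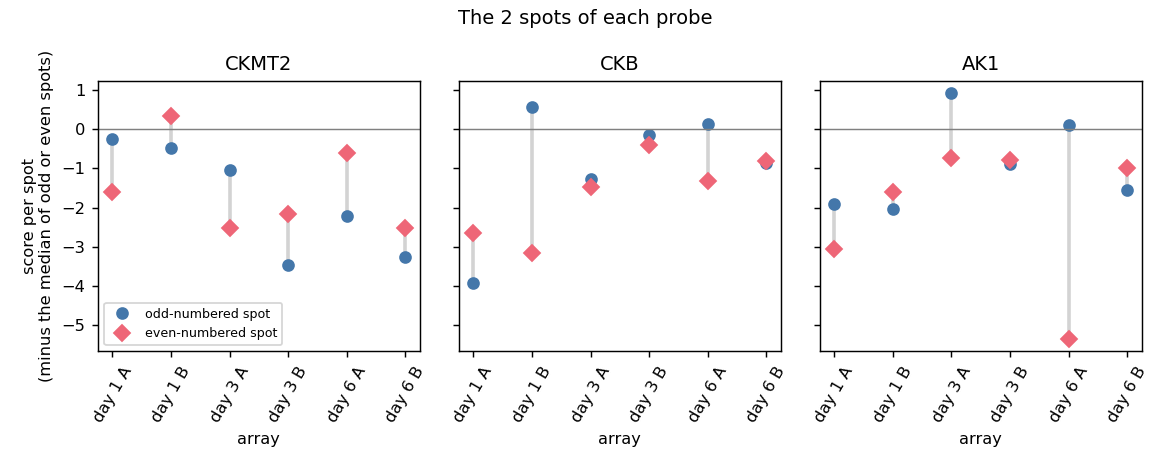
Score of each of the 2 spots (score units, minus the median of the odd-numbered or even-numbered spots) of the CKMT2, CKB and AK1 probes on the 6 arrays. Grey lines join the spots of an array. CKMT2 has 1 spot value above 0, CKB and AK1 have 2 each, and the longest line is AK1 on replicate A of day 6, where the spots stand at 0.11 and -5.35.

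AMPD1 (Entrez Gene 270), the AMP deaminase of skeletal muscle, scored 2.16 and -0.88 on day 1, 0.17 and 0.53 on day 3, and 0.84 and -0.67 on day 6. The replicates of days 1 and 6 lay on opposite sides of 0. The mean was 0.36 ± 0.28 (SD, n = 3 days; 95% interval -0.56 to 1.27), with limma's adjusted p = 0.982, and its sign turned without replicate A of day 1 (-0.15). Its spots differed by 1.53 units on average, more than those of 82.4% of probes.

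No member differed from 0, or between days, past the threshold in the fit of the 6 arrays by day. On day 1, 0.243% of features passed limma's test against array spread, on day 3 0.324% and on day 6 0.284%, with 0 of 5 members among them (with the dye orientation as a replicate block 2, 4 and 1 features passed). At an unadjusted p under 0.05, CKB and AK1 were counted on day 1, CKMT2 on day 3, and CKMT2 and AK1 on day 6. Of all 2466 features, 152, 236 and 273 were counted on these days. Scores at least 2 units below 0 on both arrays were found for 0.284% of features on day 1, 0.811% on day 3 and 1.14% on day 6, and for 0 of 5 members on each day. Between days 6 and 1, 0.365% of features passed in limma, between days 3 and 1 0.162%, and between days 6 and 3 0.0406%, again with 0 members (5, 2 and 0 features with the replicate block). At an unadjusted p under 0.05, 204, 188 and 216 features and 0 members were counted for these differences.

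Genes with scores most like CKMT2 were sought by the root mean square difference over the 6 arrays, among 1520 other genes. The closest were DUSP26, a dual-specificity phosphatase, at 0.59 units, PGK1, the phosphoglycerate kinase of glycolysis, at 0.73, and PXN, the focal adhesion protein paxillin, at 0.79, against a median of 2.15. For AK1 the closest were ANXA2, a calcium-dependent membrane-binding annexin, at 0.39 units, FNDC5, the precursor of irisin, at 0.71, and MYLIP, a ubiquitin ligase, at 0.79, against a median of 2.03. AK1 was 211th and CKB 274th in likeness to CKMT2, and CKB was 23rd in likeness to AK1. Over the 6 arrays CKMT2 correlated with AK1 at -0.48 and with CKB at -0.51, and AK1 with CKB at 0.34.

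The other genes of phosphate transfer and adenine nucleotide supply lay on both sides of 0, and none passed. Of 37 such genes 13 were measured, 9 with means above 0 and 4 below, with a median of 0.30 against 0.0028 over all features. In limma 0 passed over the days or on any day. At an unadjusted p under 0.05 over the days, 2 of the 13 were counted, against 164 of all 2466 features. The 3 highest were mitochondrial transport proteins. SLC25A5, an adenine nucleotide translocase, scored 0.86 and 0.83 on day 1, 0.46 and 3.14 on day 3, and 0.46 and 1.30 on day 6, and averaged 1.17 (adjusted p = 0.531 in limma). VDAC2, a channel of the outer membrane, scored 1.69 and 0.88 on day 1, 0.23 and 0.01 on day 3, and 1.43 and 1.70 on day 6, with a mean of 0.99 (adjusted p = 0.712 in limma). Both lay above 0 on 6 of 6 arrays, and the share of all features with that pattern was not counted. SLC25A4, the translocase of heart and muscle, averaged 0.80 and was above 0 on 5 of 6 arrays. Its means on days 1, 3 and 6 were 0.54, -0.38 and 2.24. The 3 lowest were the nucleoside diphosphate kinase NME4 at -0.56, the pyrophosphatase PPA1 at -0.41 and the channel VDAC3 at -0.26.

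Of 20 genes of glycolysis and of ion-pumping ATPases 11 were measured, 5 with means above 0 and 6 below, with a median of -0.29. In limma 0 passed over the days (1 at an unadjusted p under 0.05) or on any day. By day, 2, 3 and 3 of the 11 were counted at an unadjusted p under 0.05 on days 1, 3 and 6. Of all 2466 features, 152, 236 and 273 were counted on these days. The genes named below are the extremes of the mean over the days, which can hide changes between days. PGK1, which makes ATP in glycolysis, scored -2.10 and -0.62 on day 1, -2.25 and -2.41 on day 3, and -1.35 and -1.85 on day 6. It lay below 0 on 6 of 6 arrays, and averaged -1.76 ± 0.51 (SD, n = 3 days), which did not pass in limma (adjusted p = 0.104). GPI, the isomerase of the second step of glycolysis, averaged -0.65 and ATP1B1, a sodium pump subunit, -0.49. The highest were the triose phosphate isomerase TPI1 at 0.68, the lactate dehydrogenase subunit LDHB at 0.42 and the calcium pump ATP2A2 at 0.30. Of 7 subunits of the AMP-sensing kinase, 0 were measured.

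**Figure D4:**
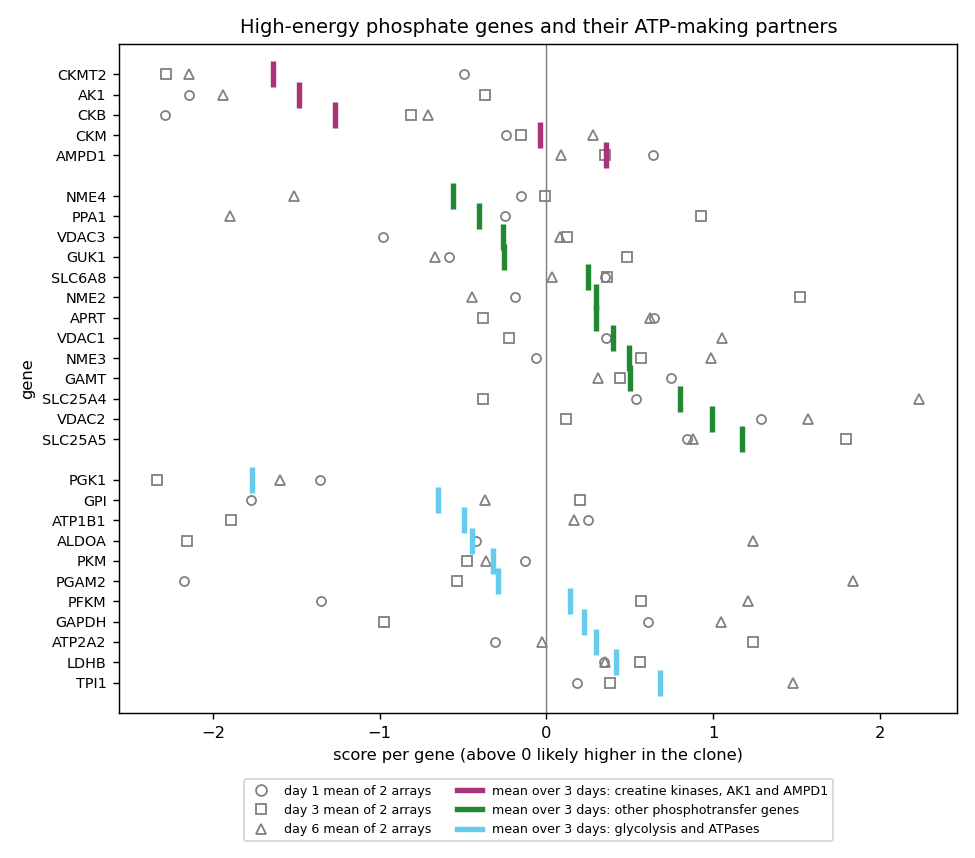
Mean score per gene (horizontal axis, score units, above 0 likely higher in the clone) for the 5 members, the 13 other phosphotransfer genes and the 11 genes of glycolysis and ATPases. Open symbols are the mean of the 2 arrays of a day and coloured bars the mean over 3 days. CKMT2, AK1 and CKB lie at -1.64, -1.48 and -1.27, where of the other genes drawn PGK1 alone, at -1.76, has a mean below -1.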

How the data were processed

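Clone and control RNA were hybridised together on 6 2-colour arrays, per the labels' protocols after Trizol extraction, reverse transcription and tyramide labelling. The authors deposited 1 score per spot for 5376 spots, with 0 missing values. Their filtering, normalization and scaling are not given in the sources used here. Of all values, 2 lay beyond 16, the largest at 21.6, beyond the log2 ratios a 16-bit scanner can give.

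Odd and following even spots were duplicates (1743 of 1743 named pairs shared a symbol) and were averaged to 2688 probes. The platform annotation named 3486 spots with 1 symbol and 0 with several, and 1890 had none. Probes of a symbol were averaged, and features were centred on each array's median. Within arrays, the correlation of duplicate spots was 0.25 to 0.60, and that of probes 2 places apart in the order of probes 0.11 to 0.38.

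With limma 3.58.1 (R 4.3.3), the 3 day means were tested against 0, and the 6 arrays were fitted with a coefficient per day. Tests were two-sided and adjusted by Benjamini-Hochberg over all 2466 features, with a threshold of 0.05. The tests were checked on simulated data. Alternatives were separate arrays, a replicate block, no centring, scale normalization, separate probes, a robust prior (statmod 1.5.0), subtraction of neighbouring probes, genes only, and leaving out arrays or days. Chosen after seeing the data were single spots, the median of probes, and leaving out the first 40 spots.

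Named were all spots of the 6 symbols, the 3 highest and 3 lowest genes of the lists for phosphotransfer, glycolysis and ATPases, and the AMP-sensing kinase, the 3 genes most like CKMT2 and AK1, and neighbouring probes. Markers of skeletal muscle and of other lineages were counted. The members, the lists and the threshold of 2 units on both arrays were chosen with earlier results of these data known. Figures used Python 3.11.15 and matplotlib 3.10.9.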

Additional observations from a re-analysis of the deposited data

Results flagged for a closer look

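Within the members and their probes, 16 sets of 6 arrays were examined for a lone high or low array, by the gap to its nearest neighbour as a share of the range against Dixon's 95% critical value. Chance alone gives about 1 in 20 such sets. CKB had a lone low array, replicate A of day 1 at -3.28, with a share of 0.641. The CKM probe at spots 4407 and 4408 had a lone low array, replicate A of day 3 at -3.37, with a share of 0.637. The arrays come from different days, so a lone array may also be a difference between days. CKM lay above 0 on both arrays of day 6 and below 0 on both arrays of day 1, a difference of 0.52 whose limma adjusted p was 0.898. It also lay below 0 on both arrays of day 3, and day 6 differed from day 3 by 0.43 (adjusted p = 0.918 in limma).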

How the results depend on the processing

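Over all alternatives the mean scores of CKMT2, AK1 and CKB kept their sign, at -2.21 to -1.32, -2.08 to -0.90 and -1.63 to -0.76. Of the members, CKMT2 alone passed limma's test, without day 1 (-2.21) and, for day 3, with neighbouring probes subtracted (-3.10). The cause of these and the following changes was not tested. CKM turned to 0.017 with neighbours subtracted, 0.064 without day 1, 0.020 without day 3 and 0.097 with even-numbered spots only, and its day 3 score to 0.042 with neighbours subtracted. Under that subtraction AMPD1 turned to -0.16 on day 3 and to 0.39 for day 6 minus day 3.

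Replicate letters stand for the dye orientation. With them as a replicate block, the means were the same and no member's call changed, with adjusted p in limma of 0.144 for CKMT2, 0.218 for AK1, 0.354 for CKB, 0.907 for AMPD1 and 0.988 for CKM. The features that passed under the block numbered 5 over the days, 2, 4 and 1 on days 1, 3 and 6, and 5, 2 and 0 for day 6 minus day 1, day 3 minus day 1 and day 6 minus day 3, against 9, 6, 8, 7, 9, 4 and 1 without it.

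The features that passed over the days numbered 4 with neighbours subtracted, 2 with genes only, 29 without day 1, 0 without day 3, 0 without day 6, 16 with odd-numbered and 4 with even-numbered spots only. With neighbours subtracted they numbered 19 on day 3, 17 on day 6, 14 for day 6 minus day 1 and 2 for day 6 minus day 3. At 1 unit on both arrays 177, 204 and 268 features were counted on days 1, 3 and 6, at 1.5 units 46, 79 and 113, and at 2 units 20, 31 and 45.

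With 1 array left out in turn, the mean over days was -1.89 to -1.39 for CKMT2, -1.71 to -1.26 for AK1, -1.60 to -0.94 for CKB, -0.092 to 0.016 for CKM and -0.15 to 0.87 for AMPD1. The range was -0.88 to 2.16 for AMPD1 day 1 score, -0.83 to 0.10 for AK1 day 3 score, -0.67 to 0.84 for AMPD1 day 6 score, -2.40 to -0.90 for CKMT2 day 6 minus day 1, 0.57 to 2.57 for CKB day 6 minus day 1, -0.46 to 0.87 for AK1 day 6 minus day 1, -2.08 to 0.97 for AMPD1 day 6 minus day 1, -2.31 to -1.27 for CKMT2 day 3 minus day 1, -0.072 to 0.25 for CKM day 3 minus day 1, 0.48 to 2.48 for CKB day 3 minus day 1, 1.31 to 2.24 for AK1 day 3 minus day 1, -1.81 to 1.24 for AMPD1 day 3 minus day 1, -0.61 to 0.89 for CKMT2 day 6 minus day 3, -0.44 to 0.64 for CKB day 6 minus day 3, -2.24 to -0.91 for AK1 day 6 minus day 3, -1.02 to 0.49 for AMPD1 day 6 minus day 3. Features passing numbered 0 (without replicate A of day 3) to 8 over the days, 0 to 1 for day 1 score, 0 to 4 for day 3 minus day 1, 4 to 10 for day 3 score, 0 to 28 for day 6 minus day 1, 1 to 7 for day 6 minus day 3, 1 to 20 for day 6 score. Leaving out replicate A of day 6 gave the 20 on day 6, the 28 for day 6 minus day 1 and the 7 for day 6 minus day 3, and either array of day 1 gave 0 for both differences from day 1. Features at least 2 units from 0 on the array kept numbered 136 to 154 on day 1, 211 to 216 on day 3, 236 to 249 on day 6.

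Precision is limited by 6 arrays, 1 clone and unknown signal over background.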
